A study of Saccharomyces cerevisiae with 12 samples.

Results

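The large ribosomal subunit of budding yeast (60S) is built with the help of many proteins that leave before the ribosome starts to translate. The 45 genes described here encode such assembly factors. They were taken by their systematic names from a list and by no cutoff on their measured values. Earlier results of these data were known when the list was chosen. They are 45 of the 7110 features in the count table. RNA was sequenced from *Saccharomyces cerevisiae* labelled as strain S288c, in wild-type cells and in *ups1*Δ cells, which lack the gene for the mitochondrial phosphatidic acid transfer protein Ups1. Cultures were grown at 30 °C to log phase in SCD, a synthetic glucose medium, and were left untreated or were given tunicamycin at 1 μg/ml for 3 h. Tunicamycin blocks N-linked glycosylation and so loads the endoplasmic reticulum with unfolded protein. Each of the 4 combinations of genotype and treatment had 3 libraries, which the submitters call biological triplicates.

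Assembly of the large subunit starts on the ribosomal RNA precursor in the nucleolus, where scaffold proteins and DEAD-box RNA helicases fold and compact the RNA. Further factors remove the second internal transcribed spacer (ITS2), dock the 5S ribonucleoprotein and act as placeholders for late ribosomal proteins. GTPases then act as checkpoints, and export and cytoplasmic factors complete the particle. Many of these genes belong to the ribosome biogenesis (Ribi) regulon, which yeast transcribes strongly during rapid growth and represses under nutrient limitation and many stresses. Repressors of the regulon are known to bind the promoter elements PAC (Dot6 and Tod6) and RRPE (Stb3) when the growth-promoting kinase complex TORC1 is inactive.

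The libraries held between 4650828 and 7101983 counts, and the 45 genes held between 103 and 4036 counts each in any library. Expression values are CPM, counts per 1000000 of a library size scaled by the TMM method of edgeR, and they are relative to the other RNAs of the culture. As these are bulk cultures, less RNA in every cell and fewer expressing cells cannot be told apart. *UPS1* itself had 185 to 427 counts in wild-type and 0 to 2 counts in *ups1*Δ libraries. The genotypes also differed in mating type and in marker genes, under the same strain label. *LYS2* and *MET17* had 0 counts in every wild-type library and at least 1250 and 1168 in every *ups1*Δ library. The summed level of 7 a-specific genes was 3258 to 3523 CPM in untreated and 1479 to 3907 CPM in treated wild-type libraries. In *ups1*Δ libraries it was 43.6 to 52.2 CPM. The sum of 5 alpha-specific genes was 85.3 to 168.6 CPM in wild-type and 1933 to 4241 CPM in *ups1*Δ libraries. Loss of Ups1 and these differences of mating type and markers cannot be told apart in any comparison between the genotypes. Untreated *ups1*Δ replicate 3 stood apart from the other replicates of its group, since each of the 45 genes had its lowest level of the group there. Where leaving it out changed the call of a gene named for its value, the value without it is given beside the result. Over all genes, treated wild-type replicates differed most. Chi-square per gene between replicates was 29.1 and 31.2 for pairs with treated wild-type replicate 2. For pairs with untreated *ups1*Δ replicate 3 it was 16.7 and 20.1.

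The promoters of these genes were searched for PAC and RRPE, elements already known for the Ribi regulon. High shares were therefore likely in advance. PAC was searched as GCGATGAG and RRPE as AAAAATTTT, on both strands, in the 250 bases before the start codon on the R64 assembly. PAC letters were present in 29 of the 45 promoters (64.4%) and in 3.83% of all 6001 promoters. RRPE letters were present in 34 (75.6%), against 6.73% of all promoters. Both were present in 21 (46.7%), against 1.62%, and at least 1 in 42 (93.3%), against 8.95%. The exceptions were *NOC3*, *RRP15* and *NOP4*. The nearest PAC match lay at a median of 115 bases before the start codon (range 47 to 173), and the nearest RRPE match at a median of 130.5 bases (range 77 to 239). In the promoters of other genes that hold the letters, the medians were close, at 125 (PAC) and 136 bases (RRPE). Their quartiles for PAC were 94 and 168, beside 100 and 129 for the genes described here. These differences were not tested. RRPE lay farther from the start codon than PAC in 16 of the 21 promoters with both. The share among other promoters with both is not given here.

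The sites of 10 genes are printed. Most were picked among the genes with both elements, so they do not show how often genes at the ends of the responses carry both. Other genes at such ends are not printed, among them *SSF1*, *LOC1* and *DBP7*, with PAC alone, and *TIF6*, with RRPE alone. The first 8 carry both elements and the last 2, whose RNAs changed least with tunicamycin in wild-type cells, carry 1 each. Capitals mark the PAC letters GCGATGAG or CTCATCGC and the RRPE letters AAAAATTTT or AAAATTTTT. Each sequence is read 5′ to 3′ along the strand of the gene.
HAS1 (chrXIII:851682-851767, minus strand): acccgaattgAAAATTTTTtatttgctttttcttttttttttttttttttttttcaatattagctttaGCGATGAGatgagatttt
NOP7 (chrVII:695266-695330, plus strand): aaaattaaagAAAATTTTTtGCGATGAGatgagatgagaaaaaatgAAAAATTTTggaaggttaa
ALB1 (chrX:189581-189617, plus strand): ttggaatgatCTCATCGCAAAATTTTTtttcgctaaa
NIP7 (chrXVI:153346-153389, plus strand): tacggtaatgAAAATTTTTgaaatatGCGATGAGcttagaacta
RPF2 (chrXI:592645-592690, minus strand): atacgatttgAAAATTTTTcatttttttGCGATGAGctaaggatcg
NOP2 (chrXIV:510387-510426, plus strand): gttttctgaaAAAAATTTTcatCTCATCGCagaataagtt
NOG1 (chrXVI:370825-370865, plus strand): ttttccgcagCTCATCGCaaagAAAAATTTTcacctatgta
NMD3 (chrVIII:443659-443700, plus strand): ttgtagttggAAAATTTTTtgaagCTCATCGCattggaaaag
SPB4 (chrVI:147019-147048, minus strand): tttcgctttcAAAAATTTTTcactgaaaaa
DBP6 (chrXIV:695530-695557, plus strand): agcataactgGCGATGAGatgtgctcga
The elements stood in either orientation and from directly adjacent, as in *ALB1*, to well separated, as in *HAS1*. A match to these letters is a description of the sequence and not evidence of binding.

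**Figure D1:**
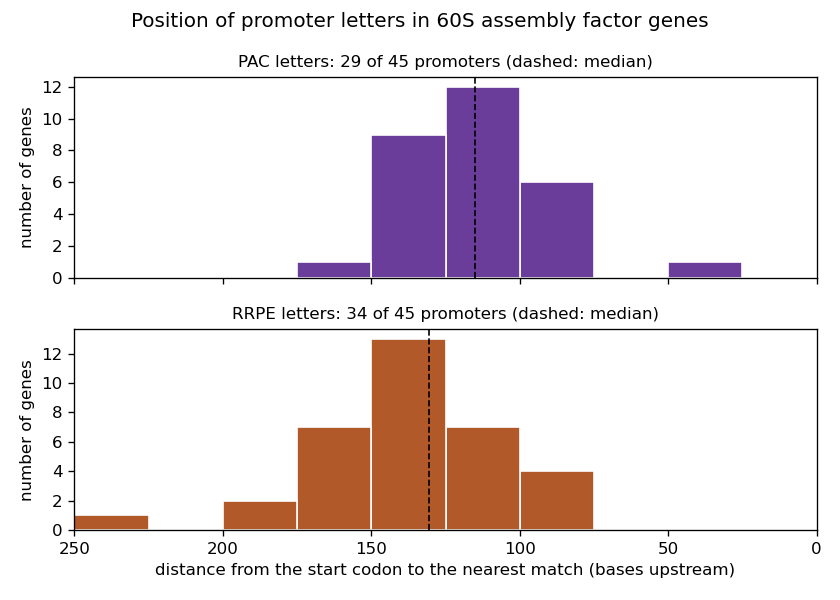
Distance from the start codon to the nearest PAC match (upper panel, 29 genes) and the nearest RRPE match (lower panel, 34 genes) among the 45 promoters, as the number of genes per bin, with the median as a dashed line. PAC matches centre on 115 bases and RRPE matches on 130.5 bases before the start codon.

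In untreated wild-type cells the 45 genes together took 1.00% to 1.03% of all counts. Per kilobase of coding sequence their mean levels had a median of 172 CPM per kb. The lowest was *DBP7* at 35.8 CPM per kb, a helicase of early precursors, followed by *DBP6* at 54.4 CPM per kb. The highest was *TIF6* at 479.9 CPM per kb, which keeps the new subunit from joining the small subunit too early, followed by *MRT4* at 419.7 CPM per kb, a placeholder for the stalk protein P0. *DBP7* was the lowest in all 4 groups and *TIF6* the highest in 3 of them, while *RLP24*, a placeholder for a ribosomal protein of the L24 family, led in tunicamycin-treated *ups1*Δ cells (325.4 against 321.1 CPM per kb for *TIF6*). The ratio of the highest to the lowest was 13.4 in untreated wild-type and 7.95 in tunicamycin-treated wild-type cells.

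**Figure D2:**
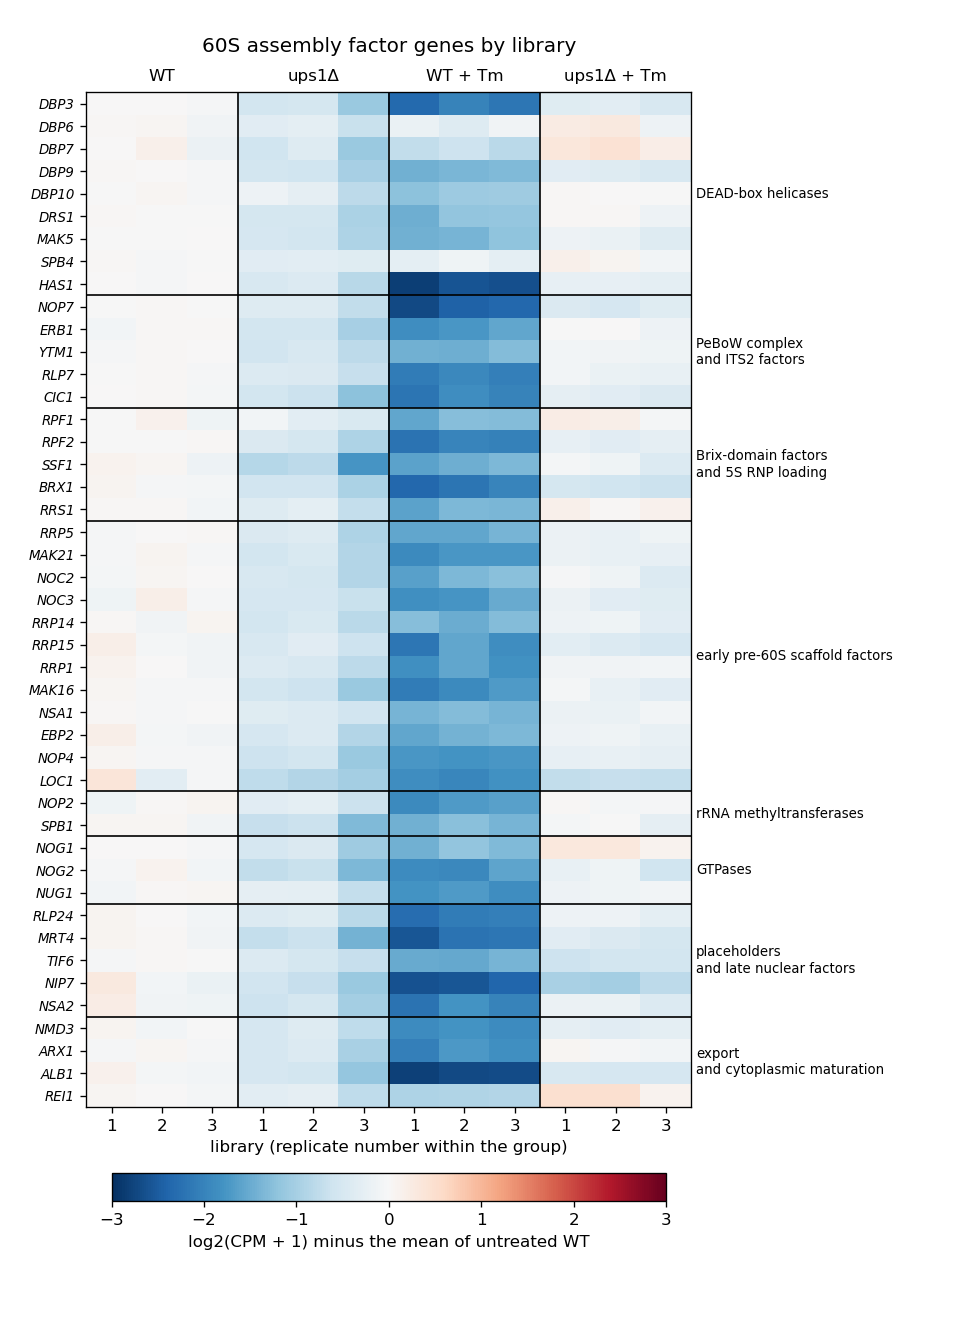
Level of each of the 45 genes (rows, by role) in each of the 12 libraries (columns), as log2(CPM + 1) minus the mean of untreated wild-type (WT), with Tm for tunicamycin. Most rows are palest in untreated WT, darkest blue in WT with Tm and near their untreated WT level in *ups1*Δ with Tm, while *DBP6* and *SPB4* are pale in all groups.

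The first comparison is between the genotypes without stress, which differ in mating type and markers as well as in *UPS1*. Untreated *ups1*Δ cells had less RNA of nearly all of the 45 genes than untreated wild-type cells, by a median log2 fold change of −0.58, or 0.669 of the wild-type level. With edgeR's quasi-likelihood test and an adjusted p of 0.05 as threshold, 43 of 45 genes fell and 0 rose. Among all 5692 genes tested, 25.8% fell and 26.5% rose, and their median was 0.02. Every *ups1*Δ library lay below every wild-type library for 44 of the 45 genes, which held for 33.7% of all genes. Without *ups1*Δ replicate 3 the median was −0.47 and 43 genes fell, beside 26.0% of all genes. Over the 6 fits that each left out 1 library, between 39 and 45 genes fell (20.3% to 26.0% of all genes), and 38 genes fell in all of these fits.

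All role groups took part. Each of the 12 early scaffold factors, the 5 PeBoW and ITS2 factors, the 5 placeholders and late nuclear factors, the 4 export and cytoplasmic factors, the 3 GTPases and both rRNA methyltransferases fell, as did 8 of 9 helicases and 4 of 5 Brix-domain and 5S factors. Group medians lay between −0.69 (placeholders and late nuclear factors) and −0.55 (export and cytoplasmic maturation). The values were narrow, with an SD of 0.16 over the 45 genes beside a median standard error of 0.11.

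*HAS1* (YMR290C), on chromosome XIII from 850074 to 851591, encodes a helicase that acts on precursors of both subunits. Its level was 422.6, 413.6 and 427.8 CPM in untreated wild-type and 303.8, 315.2 and 234.4 CPM in untreated *ups1*Δ libraries. The groups were apart, with replicate 3 lowest, and the log2 fold change was −0.54 ± 0.10 (SE, n = 3 per group, edgeR adjusted p = 0.00294). *NOP7* (YGR103W), on chromosome VII from 695417 to 697234, encodes a core subunit of the complex that yeast forms with Erb1 and Ytm1 (PeBoW in mammals). It stood at 733.6, 763.3 and 737.1 CPM in wild-type and 568.5, 566.2 and 443.5 CPM in *ups1*Δ cells. The groups did not overlap here either, with a log2 fold change of −0.47 ± 0.10 (edgeR adjusted p = 0.00385).

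The largest decrease was that of *SSF1* (YHR066W), on chromosome VIII from 229335 to 230696, a Brix-domain protein of early precursors. It measured 142.2, 137.7 and 118.9 CPM in wild-type and 72.29, 76.86 and 38.29 CPM in *ups1*Δ libraries. All *ups1*Δ values lay below all wild-type values, and the log2 fold change was −1.06 ± 0.24 (edgeR adjusted p = 0.0112). With all 6 libraries it was the single gene past a log2 fold change of 1 in size, beside 2.11% of all genes on the lower side. Without *ups1*Δ replicate 3 its value was −0.81 (adjusted p = 5.07e-06). Its reads are uncertain, because *SSF2* is a near-identical copy and the counts of the pair depend on how shared reads were divided. *SSF2* itself had a log2 fold change of −0.19 and did not pass the test. Next came *LOC1* (YFR001W), chromosome VI from 149110 to 149724, which also acts in localizing *ASH1* mRNA, with −0.89 ± 0.17, and *MRT4* (YKL009W), chromosome XI from 426242 to 426952, with −0.87 ± 0.19 (edgeR adjusted p = 0.00339 and 0.00836). Wild-type *LOC1* varied widely, at 210.9, 131.5 and 161.8 CPM, and its call was lost without *ups1*Δ replicate 3 (adjusted p = 0.0659, log2 fold change −0.82).

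A pair of genes did not pass. *RPF1* (YHR088W), chromosome VIII from 281495 to 282382, is a Brix-domain factor that works with Mak16, Nsa1 and Rrp1. It measured 132.0, 147.0 and 122.5 CPM in wild-type and 126.0, 106.4 and 97.16 CPM in *ups1*Δ libraries. The groups overlapped, and the log2 fold change was −0.25 ± 0.11 (edgeR adjusted p = 0.073). *DBP10* (YDL031W), chromosome IV from 394217 to 397204, a helicase, measured 234.6, 246.5 and 231.7 CPM against 212.3, 196.7 and 137.0 CPM, with a log2 fold change of −0.35 ± 0.14 (adjusted p = 0.0683). Its groups did not overlap, and its value without replicate 3 was −0.19 and past the threshold (adjusted p = 0.0162). Both genes were under an unadjusted p of 0.05, as were all 45, beside 28.7% of all genes on the lower side.

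*SPB4*, the smallest decrease past the threshold, had −0.31 ± 0.07 (edgeR adjusted p = 0.004). Its libraries were tight, at 118.9, 113.8 and 114.7 CPM in wild-type and 91.96, 92.27 and 89.50 CPM in *ups1*Δ cells, and replicate 3 was close to the others for this gene. *DBP6* and *DBP7* lost their calls without wild-type replicate 2 (adjusted p = 0.0529 and 0.0525), with log2 fold changes of −0.37 and −0.57 in place of −0.40 and −0.65.

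**Figure D3:**
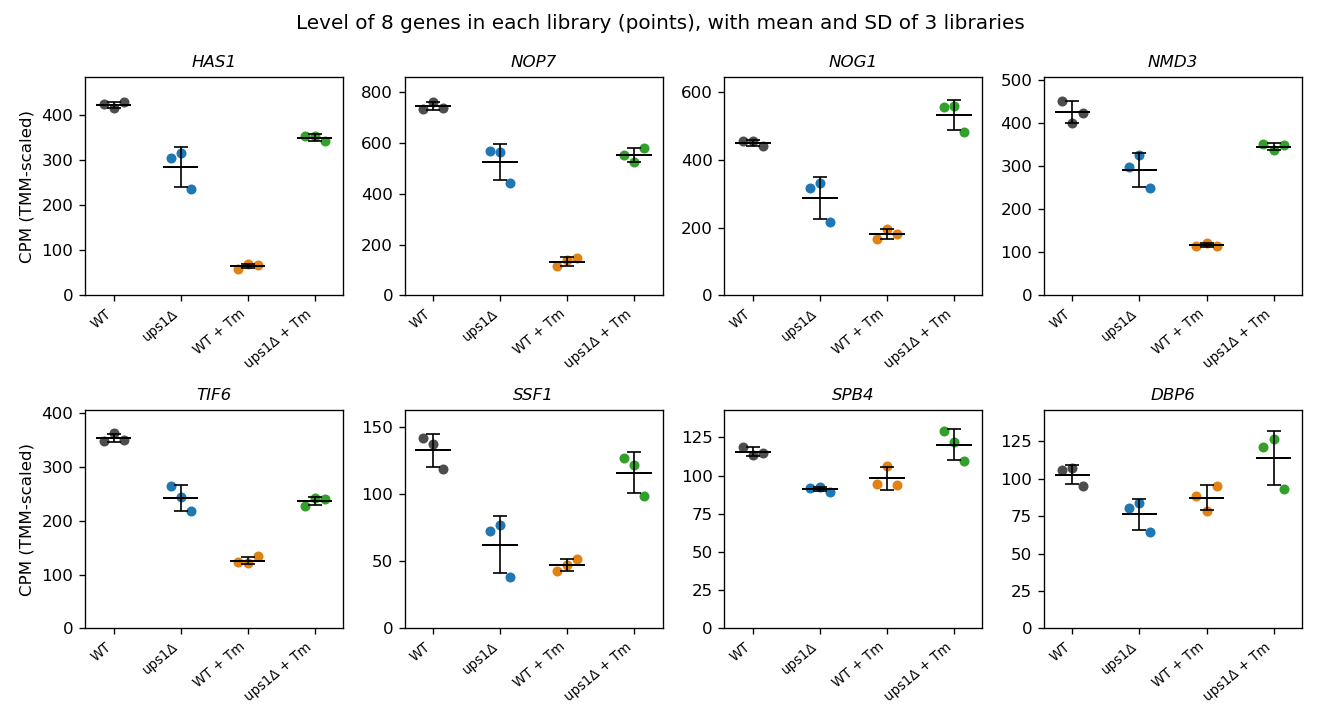
CPM of 8 genes in each of the 12 libraries (points), with the mean and SD of 3 libraries (bars), in wild-type (WT) and *ups1*Δ cells without and with tunicamycin (Tm). *HAS1* lies at 58.58 to 68.58 CPM in WT with Tm and at 234.4 CPM or more elsewhere, whereas *SPB4* lies between 89.50 and 129.4 CPM in all 12 libraries.

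The second comparison is the response of wild-type cells to tunicamycin. Here the fall was steep, with a median log2 fold change of −1.78 (3.43-fold lower), and the share of all counts taken by the 45 genes dropped to between 0.410% and 0.467%. All 45 genes fell by edgeR's quasi-likelihood test and 0 rose, beside 37.0% lower and 39.4% higher among 5785 genes tested, whose median was 0.05. Every treated library lay below every untreated one for each of the 45 genes, which held for 37.9% of all genes. A total of 41 genes fell by at least 1 on the log2 scale, as did 17.1% of all genes. Scaling by library size alone raised the median of all genes to 0.57 and that of the 45 genes to −1.26. The distance between both medians was −1.83 with either scaling. This is no check, because a change of scaling shifts all genes nearly alike. With library size alone 42 of the 45 genes fell and 2 rose (*DBP6* and *SPB4*), beside 1218 lower and 3491 higher among 5785 genes tested.

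The deepest falls came from several steps of the pathway. *ALB1* (YJL122W), chromosome X from 189716 to 190243, is a partner of the export factor Arx1. It measured 144.0, 126.4 and 123.9 CPM in untreated and 17.91, 19.12 and 19.52 CPM in treated wild-type libraries. With a log2 fold change of −2.82 ± 0.10 (edgeR adjusted p = 6e-08, 7.06-fold lower) it led the list, and treated values were close to each other. *HAS1* fell to 58.58, 68.58 and 66.99 CPM, a change of −2.72 ± 0.10 (6.60-fold lower, adjusted p = 6e-08). *NIP7* (YPL211W), chromosome XVI from 153495 to 154040, a factor of late nuclear particles, measured 249.8, 192.2 and 179.2 CPM before and 32.68, 33.67 and 38.38 CPM after treatment. Its untreated replicate 1 was high, yet all treated values were far lower, with −2.59 ± 0.13 (6.01-fold lower, adjusted p = 1.67e-07). *NOP7* followed, with 113.9, 138.6 and 145.6 CPM under treatment and −2.51 ± 0.12 (adjusted p = 1.17e-07).

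By role, the medians were −2.19 for placeholders and late nuclear factors, −2.05 for PeBoW and ITS2 factors, −1.90 for export and cytoplasmic maturation, −1.82 for GTPases, −1.76 for early scaffold factors, −1.58 for methyltransferases, −1.51 for Brix-domain and 5S factors and −1.29 for DEAD-box helicases. The differences between these groups were not tested. *RPF2* (YKR081C), chromosome XI from 591506 to 592540, which with Rrs1 brings in the 5S ribonucleoprotein, went from 224.2, 224.0 and 230.5 CPM to 47.81, 56.12 and 54.87 CPM. Its log2 fold change was −2.12 ± 0.09 (edgeR adjusted p = 8.82e-08). *NOP2* (YNL061W), chromosome XIV from 510540 to 512396, an rRNA methyltransferase, went from 349.3, 391.1 and 400.3 CPM to 99.61, 116.5 and 121.2 CPM, or −1.78 ± 0.11 (adjusted p = 3.12e-07), the median of the list. *RRP5* (YMR229C), chromosome XIII from 725934 to 731123, a long scaffold protein needed for both subunits, had −1.53 ± 0.09. *NMD3* (YHR170W), chromosome VIII from 443828 to 445384, the adaptor for nuclear export, had −1.89 ± 0.09. *TIF6* (YPR016C), chromosome XVI from 592332 to 593069, had −1.51 ± 0.09, and *NOG1* (YPL093W), chromosome XVI from 370978 to 372921, a GTPase of nucleolar particles, had −1.34 ± 0.10 (edgeR adjusted p between 1.25e-07 and 1.22e-06 for these 4 genes).

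The helicases covered the full span of the list. Beside *HAS1*, *DBP3* changed by −2.20, while *DBP6* (YNR038W), chromosome XIV from 695595 to 697484, and *SPB4* (YFL002C), chromosome VI from 145114 to 146934, had the smallest changes. *DBP6* measured 105.9, 107.3 and 95.42 CPM untreated and 88.83, 78.57 and 95.10 CPM treated. The highest treated value lay just below the lowest untreated value. With TMM scaling the log2 fold change was −0.25 ± 0.09 (edgeR adjusted p = 0.0294), and with library size alone it turned to 0.27 (adjusted p = 0.0251). It was also not called without untreated replicate 1 (adjusted p = 0.0767) or 2 (0.0948). *SPB4*, at 94.39, 106.6 and 93.58 CPM with tunicamycin, had −0.26 ± 0.08 (adjusted p = 0.0161) and turned to 0.26 with library size alone (adjusted p = 0.0121). Both lay below the median of all genes under either scaling, a position that a near-equal shift of all genes could hardly change. *DBP7* (YKR024C), chromosome XI from 485144 to 487372, had −0.76 ± 0.11 (adjusted p = 0.000104), and with library size alone −0.24 (adjusted p = 0.0583). *REI1*, a cytoplasmic factor that helps to release Arx1, was the fourth gene that fell by less than 1, with −0.94 ± 0.08.

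The third comparison is the response of *ups1*Δ cells to the same dose. None of the 45 genes fell, and many rose modestly, by a median log2 fold change of 0.41 (1.33-fold higher). With edgeR's quasi-likelihood test 27 of 45 genes rose and 0 fell, beside 15.2% higher and 11.9% lower among 5700 genes tested, whose median was 0.01. Treated libraries lay above all untreated ones for 39 of the 45 genes, against 24.5% of all genes. The number of calls depended on single libraries. Leaving out treated replicate 1 left 9 genes called and leaving out treated replicate 2 also left 9, beside 9.39% and 7.81% of all genes, so calls dropped over all genes as well. Leaving out untreated replicate 3 gave 33, beside 18.2% of all genes. The median without that last library was 0.30. The genes that rose in every fit that left out 1 library were *DBP7*, *DRS1*, *SPB4*, *ERB1*, *YTM1*, *RRS1*, *RRP1*, *NOG1* and *REI1*, 9 in all. This group was named after its values were seen.

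*DBP7* had the largest increase. It measured 52.61, 60.14 and 36.32 CPM in untreated and 100.6, 107.2 and 91.93 CPM in treated *ups1*Δ libraries. The groups were well apart, with a log2 fold change of 1.02 ± 0.16 (2.02-fold higher, edgeR adjusted p = 0.00314). *NOG1* went from 316.6, 331.3 and 215.5 CPM to 557.6, 558.1 and 483.1 CPM, or 0.90 ± 0.15 (adjusted p = 0.0048). *SSF1* had 0.90 ± 0.26 (adjusted p = 0.0477), with 127.2, 122.1 and 98.93 CPM after treatment. Its call was lost when any 1 of the 3 treated libraries or untreated replicate 1 was left out (adjusted p between 0.0673 and 0.137). It was also lost with DESeq2 size factors in edgeR (0.0507) and without the expression filter (0.0679). Without untreated replicate 3 *SSF1* stood at 0.64 (adjusted p = 0.000361). *SPB4* rose by 0.41 ± 0.08 (adjusted p = 0.00601) and *DBP6* by 0.59 ± 0.14 (adjusted p = 0.0164). The call for *DBP6* was lost without treated replicate 1 or 2 (adjusted p = 0.0648 and 0.0774).

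At the other end were *NIP7*, *TIF6*, *RRP15* and *NOP7*. *NIP7* measured 137.3, 127.0 and 93.87 CPM untreated and 104.2, 99.97 and 118.5 CPM treated. The groups overlapped, with a log2 fold change of −0.14 ± 0.14 (edgeR adjusted p = 0.46), and without untreated replicate 3 it was the single gene called lower (−0.30, adjusted p = 0.0118). *TIF6* had −0.03 ± 0.08 (adjusted p = 0.835) and *RRP15* (YPR143W), chromosome XVI from 818323 to 819075, a factor of early particles, had 0.08 ± 0.09 (adjusted p = 0.552). *NOP7*, with 554.4, 526.4 and 579.4 CPM after treatment, had 0.08 ± 0.10 (adjusted p = 0.586). The signs of *TIF6*, *RRP15* and *NOP7* turned when certain libraries were left out. The values of *HAS1* (0.30 ± 0.11, adjusted p = 0.0626), *RPF2* (0.35 ± 0.12, adjusted p = 0.0551) and *NMD3* (0.26 ± 0.10, adjusted p = 0.0778) did not pass, nor did those of *DBP10* (0.41 ± 0.14, adjusted p = 0.0697) and *MRT4* (0.46 ± 0.19, adjusted p = 0.118). Without untreated replicate 3 the values were smaller but passed for *HAS1* (0.17, adjusted p = 0.0425), *RPF2* (0.20, adjusted p = 0.0343), *DBP10* (0.23, adjusted p = 0.0136) and *MRT4* (0.24, adjusted p = 0.0155). *NOP2* (0.41 ± 0.09, adjusted p = 0.0129), *RRP5* (0.40 ± 0.13, adjusted p = 0.0435) and *RPF1* (0.40 ± 0.11, adjusted p = 0.027) did. All 3 calls were lost without treated replicate 1 (adjusted p = 0.0568, 0.119 and 0.105) or 2 (0.0506, 0.11 and 0.114). That of *RPF1* was also lost without untreated replicate 2 (0.0798). *RRP5* was also not called without treated replicate 3 (0.12) or untreated replicate 1 (0.0675). Its call was lost as well with a replicate block (0.0661) and with DESeq2 size factors in edgeR (0.0568). Without untreated replicate 3 *RRP5* had 0.25 (adjusted p = 0.0076). By role, 5 of 9 helicases rose (median 0.41), 3 of 5 PeBoW and ITS2 factors (0.44), 3 of 5 Brix-domain and 5S factors (0.40), 10 of 12 early scaffold factors (0.42), both methyltransferases (0.59), 1 of 3 GTPases (0.59), 1 of 5 placeholders and late nuclear factors (0.33) and 2 of 4 export and cytoplasmic factors (0.43). The order of the medians is not that of the counts, and differences between role groups were not tested.

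**Figure D4:**
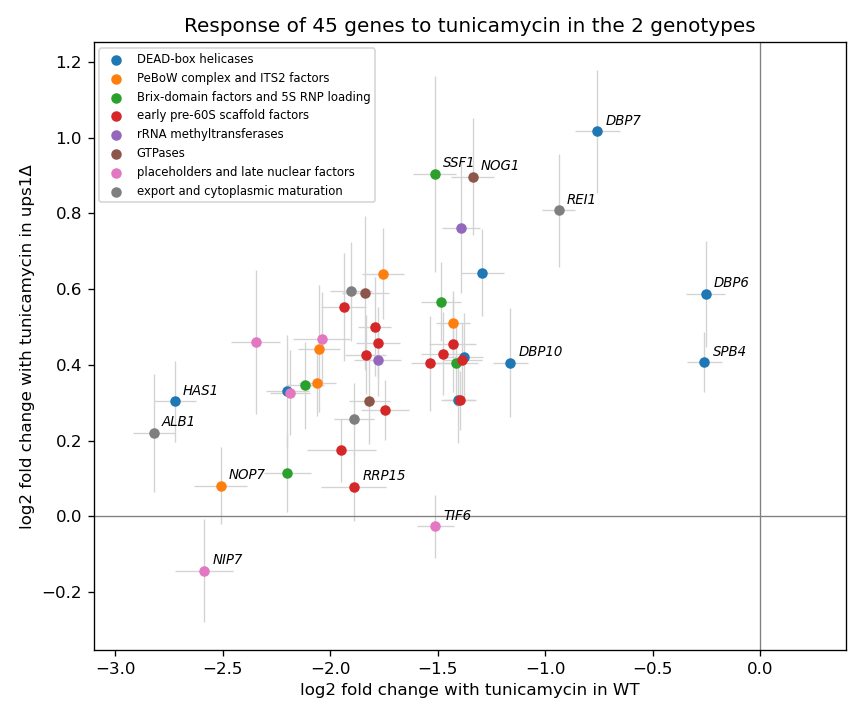
Log2 fold change with tunicamycin in wild-type (WT, x axis) and in *ups1*Δ cells (y axis) for the 45 genes, with standard errors, coloured by role. All points lie left of 0 on the x axis with TMM scaling (*DBP6* and *SPB4* turn to 0.27 and 0.26 with library size alone), and all but *NIP7* and *TIF6* lie above 0 on the y axis.

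The genotypes therefore stood in opposite order with and without stress. Under tunicamycin, *ups1*Δ cells had more RNA of each of the 45 genes than wild-type cells, by a median log2 fold change of 1.52 (2.87-fold higher). All 45 genes were higher by edgeR's quasi-likelihood test, beside 32.7% higher and 33.6% lower among 5771 genes tested. Every *ups1*Δ library lay above every wild-type library for 44 of the 45 genes, which held for 35.3% of all genes. *HAS1* had the largest difference, with 352.8, 353.4 and 340.9 CPM in treated *ups1*Δ and 58.58 to 68.58 CPM in treated wild-type libraries, or 2.43 ± 0.10 (5.39-fold higher, adjusted p = 1.05e-07). *ALB1* (2.30 ± 0.09) and *NOP7* (2.06 ± 0.12) came next, and *TIF6* (0.91 ± 0.08), *DBP6* (0.38 ± 0.12) and *SPB4* (0.29 ± 0.09) had the smallest differences. *DBP6*, at 121.6, 126.4 and 92.96 CPM in treated *ups1*Δ cells, was the gene whose groups overlapped. The calls of *DBP6* and *SPB4* (adjusted p = 0.0211 and 0.0156) were lost with library size alone, which gave 0.08 and −0.01, and *SPB4* lost its call when any 1 of 4 libraries was left out, wild-type replicates 1 and 3 and *ups1*Δ replicates 1 and 2 (adjusted p between 0.051 and 0.0713). Without wild-type replicate 1 or *ups1*Δ replicate 1 or 2, *DBP6* was not called (adjusted p = 0.0541, 0.0656 and 0.0796).

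Whether the response to tunicamycin differed between genotypes was tested as an interaction over all 12 libraries. The response of *ups1*Δ cells was more positive for all 45 genes, with a median difference of 2.12 on the log2 scale, beside 32.9% of 5828 genes more positive and 33.2% more negative. All 45 were called in each of the 12 fits that left out 1 library, beside 31.4% to 34.2% of all genes. The differences ran from 0.64 ± 0.11 for *SPB4* (edgeR adjusted p = 0.000171) and 0.81 ± 0.18 for *DBP6* (adjusted p = 0.0011) to 2.78 ± 0.24 for *MRT4*, 3.00 ± 0.15 for *HAS1* and 3.01 ± 0.20 for *ALB1* (adjusted p = 3.52e-08). The difference for *SPB4* missed the threshold with library size alone (0.25, adjusted p = 0.0588).

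By mean CPM, 35 of the 45 genes followed 1 order of groups, highest in untreated wild-type, then treated *ups1*Δ, then untreated *ups1*Δ and lowest in treated wild-type. For this and the other counts by mean CPM in this paragraph, the share of all genes is not given here. Treated wild-type was lowest for 43 genes, and for *DBP6* and *SPB4* it was untreated *ups1*Δ. In treated *ups1*Δ cells the 45 genes took 0.956% to 1.04% of all counts, after 0.586% to 0.772% in untreated *ups1*Δ cells. This overlapped the untreated wild-type range, but such shares leave out the TMM scaling. With that scaling the ranges did not overlap. The 45 genes summed to 9667 to 10410 CPM in treated *ups1*Δ libraries, below the 11410 to 11860 CPM of untreated wild-type libraries. Mean levels in treated *ups1*Δ cells lay above those of untreated wild-type cells for 8 genes, *NOG1*, *DBP7* and *REI1* among them. *NOG1* measured 456.5, 456.3 and 440.6 CPM in untreated wild-type libraries, all below its treated *ups1*Δ values. This difference was not tested.

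**Figure D5:**
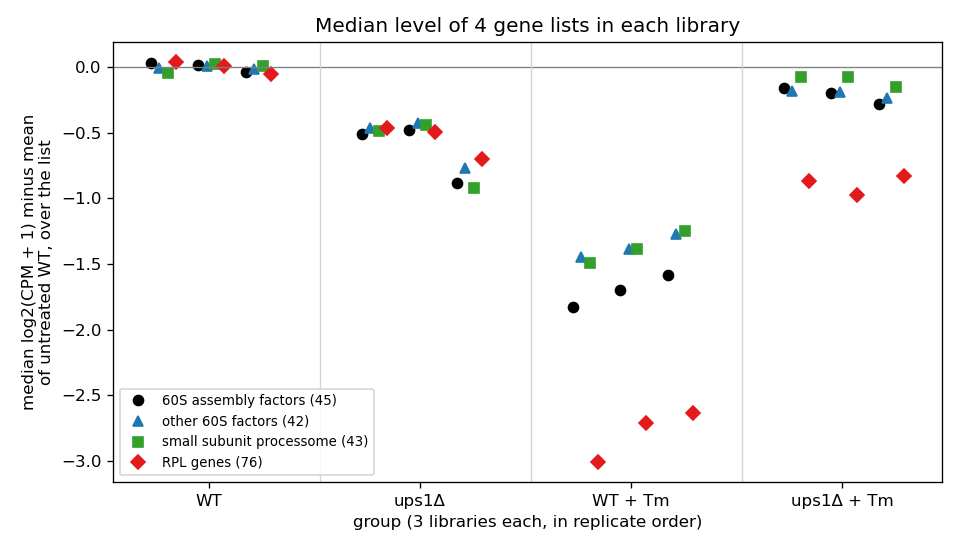
Median over each of 4 gene lists of log2(CPM + 1) minus the mean of untreated wild-type (WT), in each of the 12 libraries (Tm, tunicamycin). The 60S assembly factors lie at −1.83 to −1.58 in WT with Tm and at −0.28 to −0.16 in *ups1*Δ with Tm, where genes for large-subunit ribosomal proteins (RPL) lie at −0.98 to −0.83.

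Related lists were measured for comparison. A further 42 genes for 60S assembly factors had medians of −0.54 between untreated genotypes, −1.42 with tunicamycin in wild-type and 0.30 with tunicamycin in *ups1*Δ cells, and 43 genes of the small subunit processome, which builds the other subunit, had −0.57, −1.40 and 0.51. Of the further 60S factors, 30 fell between untreated genotypes, 38 fell and 1 rose in treated wild-type cells, and 19 rose in treated *ups1*Δ cells. The gene that moved against the others was *REH1*, a paralog of *REI1*, which rose with tunicamycin in wild-type cells (0.83 ± 0.12, edgeR adjusted p = 0.000111) and was lower in *ups1*Δ than in wild-type cells under tunicamycin (−0.83 ± 0.11, adjusted p = 0.000123). The 76 genes for large-subunit ribosomal proteins (RPL) had medians of −0.51, −2.80 and −0.33. Under tunicamycin in *ups1*Δ cells 53 of these RPL genes fell and 0 rose, while 27 of the 45 assembly factor genes rose and 0 fell. Among all genes 11.9% fell and 15.2% rose there. PAC letters were present in 35.7% of the promoters of the further 60S factors, 60.5% of processome promoters and 1.32% of RPL promoters. RRPE letters were present in 40.5%, 65.1% and 5.26%, and both in 14.3%, 44.2% and 0.00%, beside 46.7% of the 45 genes. Differences between lists were not tested.

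The 45 genes were also divided by their promoter letters. With tunicamycin in wild-type cells the 21 genes with both elements had a median log2 fold change of −2.04 (range −2.82 to −0.94). The 8 genes with PAC alone had −1.45 (range −1.95 to −0.25), the 13 with RRPE alone had −1.47 (range −2.19 to −0.26) and the 3 with neither had −1.79 (range −1.89 to −1.74). The 4 genes with the largest falls, *ALB1*, *HAS1*, *NIP7* and *NOP7*, all have both elements, and *DBP6* and *SPB4* have PAC and RRPE alone. *REI1*, among the genes with the smallest falls (−0.94), also has both. These genes were picked after their values were seen. In *ups1*Δ cells the medians were 0.41, 0.44, 0.41 and 0.28 in the same order, and between untreated genotypes they were −0.62, −0.58, −0.57 and −0.54. The ranges overlapped throughout, and the differences between these classes were not tested.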

How the data were processed

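Poly(A)-selected, strand-specific RNA-seq was analysed from 12 yeast cultures. Expected counts for each gene, which the authors obtained by pseudoalignment to sacCer3 with kallisto, were deposited unnormalized and as whole numbers. Tables of the authors' own DESeq2 comparisons (normalized counts, fold changes, p-values) were not used. Counts were scaled by TMM, filtered with filterByExpr and tested with the robust quasi-likelihood test of edgeR (4.0.16, R 4.3.3) with Benjamini-Hochberg adjustment over all genes tested. Pairwise tests used 6 libraries and the interaction all 12. Library medians used log2(CPM + 1). The scripts were tested on simulated data. Alternatives were DESeq2 (1.42.0), its size factors, library size alone, other filters and thresholds, a replicate block, all 12 libraries in 1 fit, each library left out, and for promoters the core GATGAG and a window of 200 bases. The members and gene lists were chosen with earlier results of these data known. Named were 1 gene per role group, the 3 lowest and 3 highest log2 fold changes of each comparison, genes outside the majority call, and *SSF1*. Gene positions and promoter sequences came from RefSeq's R64 genome and annotation, in which all 45 genes were found. P-values weigh each difference against the spread between these cultures only.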

Additional observations from a re-analysis of the deposited data

Results flagged for a closer look

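Wild-type and *ups1*Δ cells responded differently to tunicamycin for all 19 genes named by the rule of the methods, by the interaction test of edgeR over 12 libraries. All 45 genes passed that test, beside 32.9% of all genes with a more positive and 33.2% with a more negative response in *ups1*Δ cells. The values are the log2 response of *ups1*Δ cells minus that of wild-type cells. Among the helicases the difference was 3.00 for *HAS1*, 1.75 for *DBP7*, 1.54 for *DBP10*, 0.812 for *DBP6* and 0.637 for *SPB4*. Among the nucleolar factors it was 2.56 for *NOP7*, 2.43 for *RPF2*, 2.39 for *SSF1*, 1.79 for *RPF1*, 2.09 for *LOC1*, 1.94 for *RRP15* and 1.91 for *RRP5*. The methyltransferase gene *NOP2* had 2.16 and the GTPase gene *NOG1* had 2.21. The placeholder and late nuclear factors *MRT4*, *NIP7* and *TIF6* had 2.78, 2.41 and 1.46, and the export factors *ALB1* and *NMD3* had 3.01 and 2.12. All are positive, that is, less negative or more positive in *ups1*Δ cells. Genotype here includes the differences in mating type, *LYS2* and *MET17*, whose part in these values cannot be told apart from that of *UPS1*.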

How the results depend on the processing

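With 3 cultures per group, single libraries moved the smaller changes. In the fits without 1 library, the number of genes higher with tunicamycin in *ups1*Δ cells ran from 9 to 33 (7.81% to 18.2% of all genes). The number lower ran from 0 to 1 (4.91% to 16.7% of all genes). The log2 fold changes ran from −0.036 to 0.13 for *NOP7*, from −0.00021 to 0.14 for *RRP15* and from −0.10 to 0.035 for *TIF6*. With an adjusted p under 0.01, 9 genes were higher in that comparison, and the share of all genes at that threshold is not given here. With a log2 fold change of at least 1 it was 1 gene there, beside 142 of 5700 genes tested. In untreated *ups1*Δ cells 1 gene was lower by that size, beside 2.11% of all genes. Scaling by library size alone gave 2 genes higher with tunicamycin in wild-type cells (*DBP6* 0.27, *SPB4* 0.26), beside 3491 of 5785 genes tested. It gave medians of −1.26 for that response, 1.221 between treated genotypes and 1.74 for the interaction. It also turned *TIF6* in *ups1*Δ cells to 0.078 and *SPB4* between treated genotypes to −0.0057. It moved the share of all calls that were lower from 48.4% to 25.9% in wild-type and from 44% to 22.5% in *ups1*Δ cells with tunicamycin, from 50.7% to 70.6% between treated genotypes and from 50.2% to 70.6% in the interaction. The distance of the members' median from that of all genes stayed at −1.83 in wild-type and 0.41 in *ups1*Δ cells. That is no check either, because the scaling shifts all genes nearly alike. Same-numbered libraries of different groups did not deviate together (correlations from −0.24 to 0.11), so the numbers are not taken as pairs. With a block for the replicate number, 45 genes were lower between untreated genotypes, 44 were lower with tunicamycin in wild-type and 28 higher in *ups1*Δ cells, and 45 were higher both between treated genotypes and in the interaction. Among all genes tested these numbers were, in the same order, 1487 of 5692, 2111 of 5785, 699 of 5700, 1872 of 5771 and 1902 of 5828. The other counts and medians kept their direction and stayed within 1.5 times, or within 1 SD, under the alternatives run. That SD was the largest SD of the library medians among the groups compared. It was 0.228 in untreated *ups1*Δ cells, where replicate 3 widened it, so the limit was lenient there. Leaving out that replicate moved the medians from −0.58 to −0.47 and from 0.41 to 0.30. In the promoters, the core GATGAG was present in 43 of 45 (95.6%, against 17.0% of all), and with 200 bases PAC letters were in 29 and RRPE letters in 33.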

Other observations

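The genes for regulators of the regulon were themselves measured. *TOD6*, whose product binds PAC, was lower in untreated *ups1*Δ than in wild-type cells (log2 fold change −0.44 ± 0.11, edgeR adjusted p = 0.0112) and rose with tunicamycin in *ups1*Δ cells (1.17 ± 0.13, adjusted p = 0.000447), while its value in wild-type cells was −0.22 ± 0.11 (adjusted p = 0.109). Between untreated genotypes *SCH9* was also lower in *ups1*Δ cells (−0.26 ± 0.08, edgeR adjusted p = 0.0237), *STB3* (0.46 ± 0.09, adjusted p = 0.00246) and *SFP1* (0.42 ± 0.08, adjusted p = 0.0021) were higher, and *DOT6* did not pass (0.31 ± 0.14, adjusted p = 0.0917). *DOT6*, its paralog, rose with tunicamycin in wild-type cells (0.55 ± 0.10, adjusted p = 0.000521). *STB3*, whose product binds RRPE, rose in both (0.92 ± 0.10 in wild-type and 0.32 ± 0.10 in *ups1*Δ cells, adjusted p = 2e-05 and 0.0463), as did *SFP1*, an activator, in wild-type cells (0.83 ± 0.09, adjusted p = 2.3e-05). *SCH9*, a kinase downstream of TORC1, fell in wild-type (−0.34 ± 0.09, adjusted p = 0.0057) and rose in *ups1*Δ cells (0.33 ± 0.08, adjusted p = 0.018). RNA levels say nothing of the activity of these proteins.

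Several of the 45 genes sit beside another ribosome assembly gene. *NSA2* and *LCP5*, a gene of the small subunit processome, are divergent with 301 bases between them, and both fell with tunicamycin in wild-type cells (−2.04 ± 0.13 and −0.83 ± 0.09, edgeR adjusted p = 6.22e-07 and 1.26e-05). *MAK5* and *BMT2*, an rRNA methyltransferase gene, are divergent with 278 bases between them, and had −1.38 ± 0.09 and −0.67 ± 0.16 (adjusted p = 3.69e-07 and 0.00286). *NOG2*, which has 2 coding exons, overlaps the small nucleolar RNA gene *SNR191* on its own strand. Whether any reads of that RNA were counted for *NOG2* cannot be told from the sources used here. *REI1* overlaps *SLM6* on the opposite strand, and whether strand was used in counting is not given in the sources used here, so reads of that pair may not have been told apart.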
